A study of Mus musculus with 12 samples.

Results

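The 30 genes described here encode the enzymes that build cholesterol and the proteins that sense, store and move sterols. They are listed by name for what they are known to do, a rule that holds no threshold on a measured value, although the list was drawn up with earlier results of these data known. Each of the 30 names matched a gene ID among the 55487 genes in the deposited tables, and all 30 passed the filter on low counts that left 16649 genes for testing. By role, 7 make farnesyl diphosphate through mevalonate, 11 turn it into cholesterol, 5 sense sterol, and 7 serve the liver X receptors, storage and transport.

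Cells make cholesterol from acetyl-CoA by way of mevalonate, farnesyl diphosphate and squalene. When sterol in the endoplasmic reticulum is low, SCAP escorts the SREBP proteins to the Golgi, where cleavage frees the transcription factors that switch on genes of synthesis and uptake, and the INSIG proteins hold the complex back when sterol is plentiful. Liver X receptors bind oxysterols and switch on the genes of sterol efflux, a process known to restrain the proliferation of blood stem and progenitor cells in mice.

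RNA was sequenced from LSK cells, the lineage-negative, Sca-1-positive and c-Kit-positive fraction of mouse bone marrow that holds stem cells and early progenitors, with 4 libraries for each of 3 genotypes. Yy1-/- Smc3+/- cells lack Yy1, which encodes a zinc finger transcription factor, and carry a disrupted copy of Smc3, which encodes a subunit of the cohesin ring. Yy1-/- cells lack Yy1 alone, and Yy1+/+ cells were the wild type to which both were compared. The driver of the deletion, the sex, the age and the number of animals behind a library are not given in the sources used here, so p-values measure the spread between these libraries.

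The 12 libraries held between 38671354 and 69086104 expected counts, the read numbers that RSEM assigns to genes. Levels are given as CPM, counts scaled to the size of the library with TMM factors, and log2 fold changes with their standard error. A gene is called where its p from edgeR's quasi-likelihood test, adjusted by the Benjamini-Hochberg method over all 16649 genes, is under 0.05. Yy1 had 0.772, 0.795, 4.45 and 0.944 CPM in Yy1-/- Smc3+/- libraries 1 to 4, 0.407, 0.996, 5.01 and 12.2 CPM in Yy1-/- libraries 1 to 4, and between 33.9 and 41.3 CPM in Yy1+/+ libraries. Yy1-/- Smc3+/- library 3 and Yy1-/- libraries 3 and 4 thus held more residual Yy1 reads than the others of their genotype. Smc3 mRNA did not follow the label of the heterozygotes, with 254 to 344 CPM in Yy1-/- Smc3+/-, 200 to 306 CPM in Yy1-/- and 160 to 214 CPM in Yy1+/+.

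The libraries also differed in their cell markers. Kit, a gene of the sort, reached 180 to 373 CPM in Yy1-/- Smc3+/-, 100.1 to 242 CPM in Yy1-/- and 422 to 981 CPM in Yy1+/+. Ly6a, which encodes Sca-1, overlapped between all 3 genotypes. The sum of 10 LSK and stem cell markers, these included, was 1861 to 2227 CPM in Yy1-/- Smc3+/-, 1779 to 2128 CPM in Yy1-/- and 2970 to 3562 CPM in Yy1+/+. Of the 10, 7 were called lower in Yy1-/- Smc3+/- and 8 in Yy1-/-, beside 16.7% and 18.8% of all tested genes, and 0 were called higher. The summed level of 20 monocyte and macrophage markers was 810 to 2609 CPM in Yy1-/- Smc3+/-, 674 to 11560 CPM in Yy1-/- and 546 to 1366 CPM in Yy1+/+, with Yy1-/- libraries 1 and 2 at 11560 and 8108 CPM. The scavenger receptor gene Marco, which did not pass the filter, had 0, 0.304, 19.4 and 0 CPM in Yy1-/- Smc3+/-, 1.40, 0, 0 and 0 CPM in Yy1-/-, and 0 in all 4 Yy1+/+ libraries. Summed levels of 12 erythroid genes were 124 to 511 CPM in Yy1-/- Smc3+/-, 116 to 936 CPM in Yy1-/- and 1690 to 2554 CPM in Yy1+/+. Car2 had the highest mean of the 12, at 216 CPM in Yy1-/- Smc3+/-, 217 CPM in Yy1-/- and 1480 CPM in Yy1+/+. Not all of the 12 followed the sum. Hba-a1, Hba-a2, Hbb-bs, Alas2 and Slc4a1 had higher means in both mutants than in Yy1+/+, without a call, and the others had lower means. The summed level of 20 mitosis genes was 4550 to 5280 CPM in Yy1-/- Smc3+/-, 4278 to 5294 CPM in Yy1-/- and 1866 to 3110 CPM in Yy1+/+. In bulk RNA of this kind, fewer cells of a type and less RNA per cell cannot be told apart.

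Promoter sequences are shown for 4 of the 30 genes, so that a reader can see examples of the regulatory elements that were searched for. Insig1 had the smallest adjusted p of the sterol sensors, and Ebp was the enzyme called higher in both mutants. Hmgcs1 was the member whose window holds an exact match to the sterol regulatory element, and Srebf2 encodes the SREBP of cholesterol synthesis. Each run is on the strand of its gene, 5′ to 3′, from 250 bases before the transcript start to 28 bases after it, in the RefSeq annotation of GRCm38.p6. Capitals mark CCAAT, the NF-Y box, on the other strand in Insig1 and Ebp, the sterol regulatory element in Hmgcs1, and the core of the YY1 site on the other strand in Srebf2. Hmgcs1 and Srebf2 also hold CCAAT on the other strand, left here in lower case. The windows lie at chr5:28071162-28071439 on the plus strand for Insig1, chrX:8193485-8193762 on the minus strand for Ebp, chr13:119690101-119690378 on the plus strand for Hmgcs1 and chr15:82147019-82147296 on the plus strand for Srebf2.
Insig1: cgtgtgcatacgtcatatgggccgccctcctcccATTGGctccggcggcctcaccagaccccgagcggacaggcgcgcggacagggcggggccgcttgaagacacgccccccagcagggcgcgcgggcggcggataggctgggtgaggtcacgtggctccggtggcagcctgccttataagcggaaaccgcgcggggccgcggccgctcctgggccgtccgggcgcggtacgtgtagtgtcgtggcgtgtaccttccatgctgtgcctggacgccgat
Ebp: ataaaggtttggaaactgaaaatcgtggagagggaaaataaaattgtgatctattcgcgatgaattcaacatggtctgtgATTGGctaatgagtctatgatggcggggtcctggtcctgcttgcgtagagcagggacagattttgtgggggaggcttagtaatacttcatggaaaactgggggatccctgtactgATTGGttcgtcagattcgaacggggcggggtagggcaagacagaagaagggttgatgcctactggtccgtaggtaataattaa
Hmgcs1: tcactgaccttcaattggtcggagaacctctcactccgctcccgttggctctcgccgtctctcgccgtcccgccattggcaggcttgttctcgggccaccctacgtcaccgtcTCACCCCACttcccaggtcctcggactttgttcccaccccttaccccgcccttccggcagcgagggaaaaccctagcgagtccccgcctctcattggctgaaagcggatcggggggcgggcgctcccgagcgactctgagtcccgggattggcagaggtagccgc
Srebf2: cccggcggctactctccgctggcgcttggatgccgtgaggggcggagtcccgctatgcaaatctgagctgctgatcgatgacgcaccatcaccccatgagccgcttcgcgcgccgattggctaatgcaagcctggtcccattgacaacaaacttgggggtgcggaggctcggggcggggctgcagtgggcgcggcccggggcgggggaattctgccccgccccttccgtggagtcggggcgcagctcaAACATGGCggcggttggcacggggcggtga

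Motifs were searched as exact letters on both strands of the full windows. These run from 250 bases before a start to 50 after it, and no motif was required to be free of another. Near matches were not counted, so a window without a match may still hold a variant of a motif. RefSeq windows matched 25 of the 30 genes, with 34 windows in all, and the 5 without a window were Abcg1, Stard4, Fdps, Fdft1 and Sqle. The NF-Y box CCAAT stood in a window of 20 of the 25 genes, or 80.0%, against 41.1% of all 27025 genes with a window. Of the members called lower in at least 1 comparison, 7 had a window and 6 of these held CCAAT, and of the members called in no comparison 15 had a window and 12 held it. The box was thus present in called and uncalled members alike. The sterol regulatory element TCACNCCAC was found in 1 of the 25 members, Hmgcs1, and in 1.44% of all 27025 genes with a window. The YY1 core GCCATNTT was found in 2 of the 25, Insig2 and Srebf2, and in 6.96% of all genes with a window. The liver X receptor repeat, AGGTCA repeated with 4 free bases between, was found in 0 of the 25 and in 0.0148% of all genes with a window.

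In wild-type LSK cells the 30 genes spanned a wide range of levels per transcript length. By TPM, which scales for transcript length, the most abundant was Nr1h2, encoding liver X receptor beta, at a mean of 118 TPM with a range of 112 to 129 TPM over the 4 Yy1+/+ libraries. Fdps, farnesyl diphosphate synthase, followed at 114 TPM with a range of 92.2 to 140 TPM, so their ranges overlapped. The lowest were Abca1 at 2.66 TPM and Nr1h3 at 2.30 TPM, with overlapping ranges of 0.700 to 3.63 TPM and 1.23 to 3.69 TPM. Among the sensors, Srebf2 averaged 73.7 TPM but ranged over 31.0 to 90.7 TPM. Yy1+/+ library 2 was the lowest of the 4 Yy1+/+ libraries in 18 of the 30 genes and the highest in 5, and results that turn on it are given with and without it.

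Both mutant genotypes had less mRNA for Insig1, the squalene epoxidase gene Sqle, the thiolase gene Acat2 and Srebf2, and more for Ebp, an isomerase late in the pathway. The calls of Insig1, Sqle and Acat2 held in both mutants under all 21 other settings tried. In Yy1-/- Smc3+/- the call of Srebf2 was lost under 11 of the 21 and that of Ebp under 4. In Yy1-/- Smc3+/- cells 1 of the 30 genes was called higher and 5 lower than in Yy1+/+, against 13.1% of all tested genes called higher and 16.7% called lower. In Yy1-/- cells 3 were called higher and 8 lower, against 16.3% and 18.8% of all tested genes. The members' shares were 3.33% higher and 16.7% lower in Yy1-/- Smc3+/-, and 10% higher and 26.7% lower in Yy1-/-, so the shares called lower lay at or a little above those of all genes. The median log2 fold change of the 30 genes was -0.25 in Yy1-/- Smc3+/- and -0.31 in Yy1-/-, beside 0.02 in Yy1-/- Smc3+/- and 0.006 in Yy1-/- for all tested genes. Point estimates lay below 0 for 21 of the 30 in each comparison. The 2 comparisons share the Yy1+/+ libraries, so they are not independent of each other. In all, 12 genes were called in at least 1 comparison and 18 in none.

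**Figure D1:**
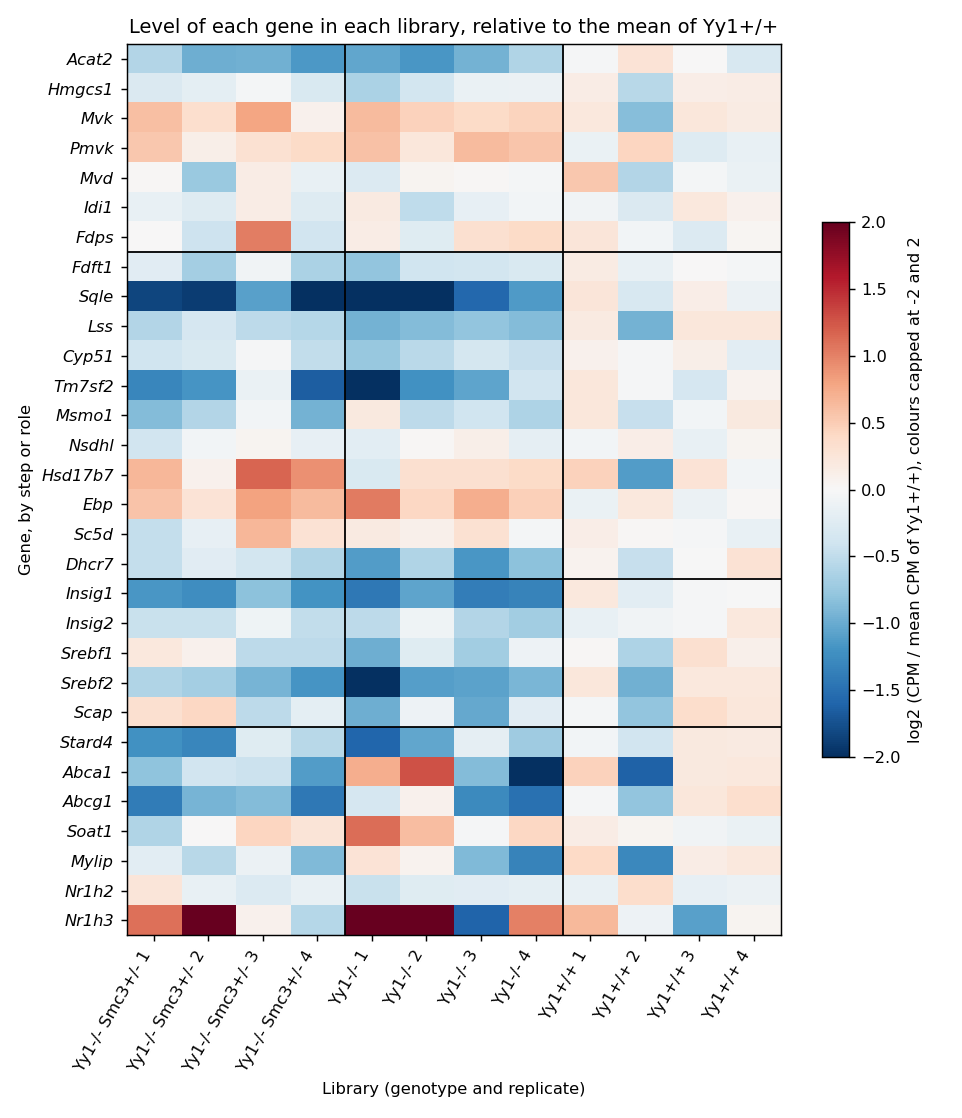
Level of each of the 30 genes (rows, grouped by role) in each of the 12 libraries (columns), as log2 of its CPM over the mean CPM of Yy1+/+, with colours capped at -2 and 2. Sqle, Insig1 and Acat2 are blue in all 8 mutant libraries, Ebp is red in all 8, and Nr1h3 is deepest red in Yy1-/- Smc3+/- library 2 and Yy1-/- libraries 1 and 2.

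Without Yy1+/+ library 2 the counts were 2 higher and 8 lower in Yy1-/- Smc3+/-, and 3 higher and 9 lower in Yy1-/-. Over all genes that setting called 12.4% higher and 15.9% lower in Yy1-/- Smc3+/-, and 16.5% higher and 18.8% lower in Yy1-/-. The calls gained in Yy1-/- Smc3+/- were Lss, Dhcr7 (log2 fold change -0.54, edgeR adjusted p = 0.0343), Msmo1 (-0.70, edgeR adjusted p = 0.0492) and Pmvk (0.52, edgeR adjusted p = 0.0297). In Yy1-/- the calls gained were Hmgcs1 (-0.45, edgeR adjusted p = 0.0331) and Stard4 (-0.90, edgeR adjusted p = 0.0433), and that of Tm7sf2 was lost (edgeR adjusted p = 0.0579). Leaving out the 3 libraries that kept residual Yy1 reads, which leaves 3 Yy1-/- Smc3+/- and 2 Yy1-/- libraries, gave 0 higher and 7 lower in Yy1-/- Smc3+/-, and 3 higher and 8 lower in Yy1-/-. Over all genes this second setting called 8.95% higher and 15% lower in Yy1-/- Smc3+/-, and 12.5% higher and 15% lower in Yy1-/-. The 2 Yy1-/- libraries it leaves are the 2 highest in monocyte and macrophage markers. The Yy1-/- Smc3+/- library it leaves out, library 3, also held 17100 CPM of 12 neutrophil genes, against 1873 to 2597 CPM in the other 3. In both mutants, residual Yy1 reads and cell content thus cannot be told apart.

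Insig1 (chr5:28071363-28078662 in mm10, plus strand) encodes the membrane protein that retains the SREBP complex in the endoplasmic reticulum and is itself a classic SREBP target. It had 19.9, 18.8, 25.2 and 19.5 CPM in Yy1-/- Smc3+/-, 16.6, 21.3, 17 and 17.7 CPM in Yy1-/-, and 51.5, 38.6, 43.6 and 44.3 CPM in Yy1+/+. Every mutant library lay below every Yy1+/+ library. The log2 fold change was -1.10 ± 0.16 in Yy1-/- Smc3+/- (edgeR adjusted p = 0.000284) and -1.29 ± 0.16 in Yy1-/- (edgeR adjusted p = 8.83e-05), a fitted 46.8% and 40.8% of the level in Yy1+/+. Insig1 was the member with the smallest adjusted p in each comparison, and it was called under each of the 21 other settings tried. The 4 libraries of each mutant lay close together, with an SD of 2.94 CPM in Yy1-/- Smc3+/- and 2.17 CPM in Yy1-/-. The part of residual Yy1 reads, of macrophage content or of the lower LSK and stem cell markers in these values was not tested.

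Srebf2 (chr15:82147181-82205379, plus strand) encodes SREBP-2, the factor that drives the genes of cholesterol synthesis. It had 163, 154, 130 and 109 CPM in Yy1-/- Smc3+/-, 52.6, 115, 117 and 131 CPM in Yy1-/-, and 288, 128, 285 and 288 CPM in Yy1+/+. Yy1+/+ library 2 alone reached into the mutant range, and the other 3 Yy1+/+ libraries lay well above all 8 mutant libraries. Relative to Yy1+/+, its log2 fold change was -0.83 ± 0.29 in Yy1-/- Smc3+/- (edgeR adjusted p = 0.0460) and -1.25 ± 0.29 in Yy1-/- (edgeR adjusted p = 0.00551). The call in Yy1-/- held under all 21 other settings, and the call in Yy1-/- Smc3+/- was lost under 11 of them, with adjusted p between 0.00834 and 0.123 over the 21 by edgeR, DESeq2 or limma. Among these 11 were the fits without any 1 of the 4 Yy1-/- Smc3+/- libraries, without Yy1-/- library 2 and without Yy1+/+ library 1, 3 or 4.

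None of the other 3 sensors was called. Insig2, the second retention protein, had 21.9 to 29.0 CPM in Yy1-/- Smc3+/-, 19 to 28.9 CPM in Yy1-/- and 27.8 to 35.8 CPM in Yy1+/+, with an edgeR adjusted p of 0.139 in Yy1-/- Smc3+/- and 0.0572 in Yy1-/-, and was called in Yy1-/- without library 2 (log2 fold change -0.60, edgeR adjusted p = 0.0163). Srebf1, whose SREBP-1 products mainly serve fatty acid synthesis, had 87.0 to 145 CPM in Yy1-/- Smc3+/-, 63.7 to 117 CPM in Yy1-/- and 81.9 to 156 CPM in Yy1+/+. Scap, the escort protein, had 71.0 to 136 CPM in Yy1-/- Smc3+/-, 50.4 to 95.2 CPM in Yy1-/- and 59.4 to 131 CPM in Yy1+/+. All 3 overlapped between each mutant and the wild type.

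Of the 7 enzymes from acetyl-CoA to farnesyl diphosphate, Acat2 was called lower in both mutants and Pmvk higher in Yy1-/-. Acat2 (chr17:12942890-12960747, minus strand), the cytosolic thiolase that joins acetyl-CoA units, had 62.2, 47.5, 47.8 and 42.3 CPM in Yy1-/- Smc3+/-, 45.3, 41.8, 48.4 and 61.7 CPM in Yy1-/-, and 91.8, 113, 94.2 and 74.9 CPM in Yy1+/+. All 8 mutant libraries lay below the lowest Yy1+/+ library. On the log2 scale the difference was -0.90 ± 0.17 in Yy1-/- Smc3+/- (edgeR adjusted p = 0.00188) and -0.92 ± 0.17 in Yy1-/- (edgeR adjusted p = 0.00139), and both calls held under all 21 other settings. The Acat2 counts were not whole in 100% of libraries, as happens where RSEM shares reads between genes, which leaves its level uncertain. The same limit holds for Idi1 and Fdft1, also not whole in 100% of libraries. Counts were not whole in 91.7% of libraries for Fdps, 83.3% for Scap and 66.7% for Hmgcs1. The neighbouring copy of Acat2, Acat3, was assigned 0.117 to 0.860 CPM in the 12 libraries and was not called in either mutant.

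Pmvk, phosphomevalonate kinase, had 32.8, 24.4, 28 and 29.6 CPM in Yy1-/- Smc3+/-, 33.9, 26.6, 35.3 and 33.2 CPM in Yy1-/-, and 20.7, 30.6, 18.9 and 20.4 CPM in Yy1+/+. Yy1+/+ library 2 lay within the Yy1-/- range and the other 3 below it. The log2 fold change in Yy1-/- was 0.51 ± 0.18 (edgeR adjusted p = 0.0449), a call lost under 16 of 21 other settings, including the loss of any 1 library other than Yy1-/- library 2 and Yy1+/+ library 2, and in Yy1-/- Smc3+/- it was 0.34 ± 0.18 (edgeR adjusted p = 0.180). Mvk, mevalonate kinase, had 12.4 to 20.2 CPM in Yy1-/- Smc3+/-, 15.2 to 18.2 CPM in Yy1-/- and 6.46 to 13.6 CPM in Yy1+/+, and was not called, although Yy1-/- and Yy1+/+ did not overlap.

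Hmgcs1, the synthase whose promoter holds the printed sterol regulatory element, had 40.5 to 48.7 CPM in Yy1-/- Smc3+/-, 32.3 to 46.3 CPM in Yy1-/- and 33.9 to 55.7 CPM in Yy1+/+. Its log2 fold change was -0.20 ± 0.18 in Yy1-/- Smc3+/- and -0.30 ± 0.18 in Yy1-/-, and neither was called. Yy1+/+ library 2 held the lowest of the 4 wild-type values, and the other 3 lay above every mutant library. The decarboxylase gene Mvd, the isomerase gene Idi1 and Fdps were not called, with log2 fold changes between -0.14 and 0.19 in Yy1-/- Smc3+/- and between -0.11 and 0.17 in Yy1-/-. Fdps reached 157 CPM in Yy1-/- Smc3+/- library 3, against 58.0 to 77.6 CPM in the other 3 libraries of that genotype. That library also had 17100 CPM of 12 neutrophil genes, against 1873 to 2597 CPM in the other 3, and the part of such cells in its values was not tested. Summed over the 7 genes of this arm, levels were 243.5 ± 57.3 TPM in Yy1-/- Smc3+/-, 234 ± 42.6 TPM in Yy1-/- and 285 ± 32.2 TPM in Yy1+/+ (SD, n = 4 each).

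Sqle (chr15:59315077-59331192, plus strand) encodes squalene epoxidase, which puts the oxygen into squalene and is a rate-limiting step of the sterol arm. It had 22.4, 21.4, 37.8 and 14.4 CPM in Yy1-/- Smc3+/-, 8.54, 15.5, 26.9 and 36.4 CPM in Yy1-/-, and 95, 64.2, 87.8 and 73.6 CPM in Yy1+/+. No mutant library reached the lowest Yy1+/+ library, and the highest values within the mutants belonged to the 3 libraries with residual Yy1 reads, whose part in the values was not tested further. The log2 fold change was -1.74 ± 0.38 in Yy1-/- Smc3+/- (edgeR adjusted p = 0.00406) and -1.88 ± 0.38 in Yy1-/- (edgeR adjusted p = 0.00223), a fitted level of 29.9% and 27.3% of that in Yy1+/+. Without those 3 libraries it was -2.09 ± 0.26 in Yy1-/- Smc3+/- (edgeR adjusted p = 0.000367) and -2.76 ± 0.32 in Yy1-/- (edgeR adjusted p = 0.000236). In Yy1-/- this leaves libraries 1 and 2, at 11560 and 8108 CPM of monocyte and macrophage markers. Libraries 3 and 4 held 674 and 1095 CPM of them, so residual Yy1 reads and cell content cannot be told apart. The same limit holds in Yy1-/- Smc3+/-, whose library 3 also held 17100 CPM of 12 neutrophil genes. The calls of Sqle in both mutants held under all 21 other settings.

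Lss, lanosterol synthase, closes the rings that give the first sterol. It had 15.8, 18.8, 16.5 and 16 CPM in Yy1-/- Smc3+/-, 12.3, 13, 13.8 and 13.1 CPM in Yy1-/-, and 27, 12.3, 27.8 and 27.7 CPM in Yy1+/+. Library 2 was the only Yy1+/+ library to fall within or below the mutant ranges. By log2 fold change it lay at -0.49 ± 0.23 in Yy1-/- Smc3+/- (edgeR adjusted p = 0.126) and -0.86 ± 0.24 in Yy1-/- (edgeR adjusted p = 0.0124). Without Yy1+/+ library 2 the difference in Yy1-/- Smc3+/- was called, at -0.71 (edgeR adjusted p = 0.00351). Once the libraries that kept residual Yy1 reads were left out, the difference in Yy1-/- was -0.94 and was not called (edgeR adjusted p = 0.0597).

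Cyp51, the demethylase that acts on lanosterol, had 42.5, 45.4, 55.2 and 40.1 CPM in Yy1-/- Smc3+/-, 33.1, 38.9, 43.9 and 41 CPM in Yy1-/-, and 60, 55.3, 61 and 48.8 CPM in Yy1+/+. The Yy1-/- libraries lay below all Yy1+/+ libraries and the Yy1-/- Smc3+/- libraries overlapped them. Fitted over all libraries, the log2 fold change was -0.30 ± 0.14 in Yy1-/- Smc3+/- (edgeR adjusted p = 0.140) and -0.52 ± 0.14 in Yy1-/- (edgeR adjusted p = 0.0141). Cyp51 shares 3.8% of its exonic bases with Akap9 on the opposite strand, a gene at a mean of 51.3 CPM in Yy1+/+ that was itself called lower in both mutants.

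Tm7sf2, a sterol reductase that acts after Cyp51, had 2.21, 2.39, 4.94 and 1.74 CPM in Yy1-/- Smc3+/-, 1.14, 2.33, 2.60 and 4.16 CPM in Yy1-/-, and 6.37, 5.32, 4.29 and 5.72 CPM in Yy1+/+. Yy1-/- library 4, with the most residual Yy1 reads of its genotype, lay just under the lowest Yy1+/+ library. The log2 fold change was -0.96 ± 0.38 in Yy1-/- Smc3+/- (edgeR adjusted p = 0.0758) and -1.08 ± 0.38 in Yy1-/- (edgeR adjusted p = 0.0430), a call lost under 10 of 21 other settings. Those include the fits without Yy1-/- Smc3+/- library 1, Yy1-/- library 1, 2 or 3, or Yy1+/+ library 1, 2 or 4, with edgeR adjusted p up to 0.0997. In Yy1-/- Smc3+/- the gene was called without its library 3, at -1.36 (edgeR adjusted p = 0.0224), and without Yy1-/- library 1 (edgeR adjusted p = 0.0443). That library 3 held both the residual Yy1 reads and the high neutrophil genes of its genotype, which cannot be told apart. Tm7sf2 shares 12.1% of its exonic bases with Vps51 on the same strand, so reads there could be assigned to either.

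Ebp (chrX:8185329-8193512, minus strand), the isomerase that shifts a double bond of the sterol ring, moved the other way. It had 73.1, 59.6, 85.7 and 76.1 CPM in Yy1-/- Smc3+/-, 101, 65.4, 81.9 and 68.7 CPM in Yy1-/-, and 44.9, 57, 45.2 and 49.9 CPM in Yy1+/+. All 8 mutant libraries lay above the highest Yy1+/+ library, which was library 2. Its difference on the log2 scale was 0.58 ± 0.17 in Yy1-/- Smc3+/- (edgeR adjusted p = 0.0181) and 0.68 ± 0.17 in Yy1-/- (edgeR adjusted p = 0.00625), a fitted level of 149% and 161% of that in Yy1+/+. The call in Yy1-/- held under all 21 other settings. The call in Yy1-/- Smc3+/- was lost under 4 of them, among them leaving out the residual libraries (log2 fold change 0.45, edgeR adjusted p = 0.0951), Yy1-/- Smc3+/- library 3 alone (0.50, edgeR adjusted p = 0.0557) or Yy1+/+ library 1 alone (0.54, edgeR adjusted p = 0.0555). Yy1-/- Smc3+/- library 3 held both the residual Yy1 reads and the high neutrophil genes of its genotype, which cannot be told apart.

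Dhcr7, the reductase that finishes cholesterol, had 33.2, 39.6, 35.9 and 30.4 CPM in Yy1-/- Smc3+/-, 21.2, 30.5, 20.5 and 26.2 CPM in Yy1-/-, and 48.6, 33.6, 45.9 and 56.5 CPM in Yy1+/+. The Yy1-/- libraries lay below all Yy1+/+ libraries, and Yy1-/- Smc3+/- libraries overlapped both. Against Yy1+/+ the log2 fold change was -0.41 ± 0.19 in Yy1-/- Smc3+/- (edgeR adjusted p = 0.115) and -0.90 ± 0.19 in Yy1-/- (edgeR adjusted p = 0.00261).

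**Figure D2:**
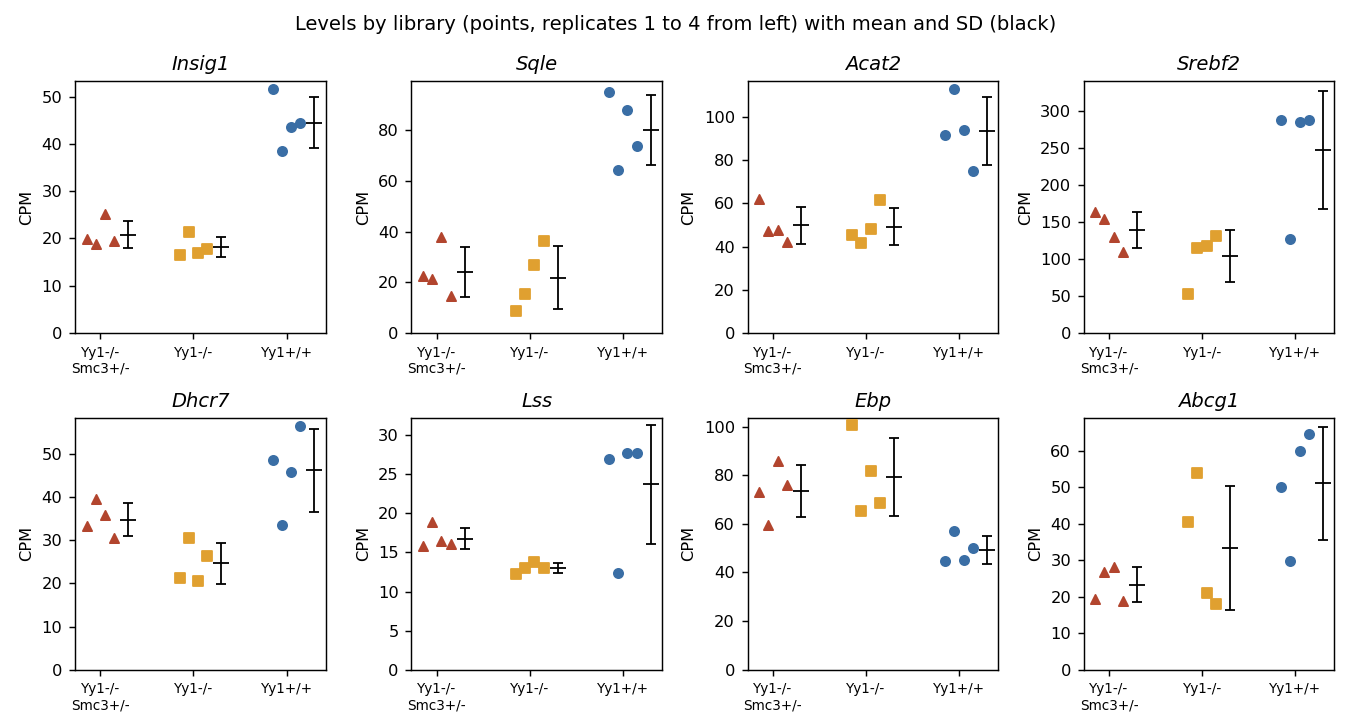
CPM (vertical axes, from 0) of 8 genes in the 4 libraries of each genotype, with the mean and SD in black. The mutant points of Insig1, Sqle and Acat2 lie below every Yy1+/+ point and those of Ebp above them, while for Srebf2 and Lss the Yy1+/+ point of library 2 lies apart from the other 3.

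The other 5 enzymes of the sterol arm were not called in either mutant. Fdft1, squalene synthase, had 21.1 to 32.5 CPM in Yy1-/- Smc3+/-, 19.7 to 27.4 CPM in Yy1-/- and 30.6 to 38 CPM in Yy1+/+, with log2 fold changes of -0.38 ± 0.18 in Yy1-/- Smc3+/- and -0.45 ± 0.18 in Yy1-/-. It shares 18.3% of its exonic bases with Ctsb, a lysosomal protease gene on the opposite strand that had 3004 and 2381 CPM in Yy1-/- libraries 1 and 2, against 286 to 464 CPM in Yy1+/+, and the labels do not say whether strand was used. Msmo1, which removes methyl groups from the ring, had 23.3 to 43.2 CPM in Yy1-/- Smc3+/-, 29.2 to 51.5 CPM in Yy1-/- and 32.7 to 52.3 CPM in Yy1+/+, and in Yy1-/- Smc3+/- it was called without library 3 (log2 fold change -0.79, edgeR adjusted p = 0.0293) or without Yy1-/- library 1 (-0.61, edgeR adjusted p = 0.0480). Hsd17b7, a reductase of the same demethylation cycle, had 9.33 to 19.7 CPM in Yy1-/- Smc3+/-, 7.14 to 11.5 CPM in Yy1-/- and 4.04 to 12.1 CPM in Yy1+/+. All of these ranges overlapped except those of Fdft1 in Yy1-/- and Yy1+/+. Nsdhl, which works beside Msmo1, and the desaturase gene Sc5d had log2 fold changes between -0.13 and 0.14 in the 2 mutants.

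Over the 11 genes of the sterol arm, 1 was called higher and 1 lower in Yy1-/- Smc3+/-, and 1 higher and 5 lower in Yy1-/-, with a median of -0.38 on the log2 scale in Yy1-/- Smc3+/- and -0.45 in Yy1-/-. Their summed level was 172, 188, 231 and 181 TPM in Yy1-/- Smc3+/-, 170, 169, 186.5 and 195 TPM in Yy1-/-, and 289, 199, 281 and 276 TPM in Yy1+/+. Yy1+/+ library 2 fell among the mutant values and the other 3 lay above all of them. Over the 7 genes of the arm before it, 0 were called higher and 1 lower in Yy1-/- Smc3+/-, and 1 higher and 1 lower in Yy1-/-, with a median of -0.12 in Yy1-/- Smc3+/- and -0.05 in Yy1-/-. Of all tested genes, 13.1% were called higher and 16.7% lower in Yy1-/- Smc3+/-, and 16.3% higher and 18.8% lower in Yy1-/-. The counts of both arms in Yy1-/- Smc3+/- thus lay near or below these shares. Mitosis genes rose in the same libraries, with 20 of 20 called higher in Yy1-/- Smc3+/- and 19 of 20 in Yy1-/-. Their part in the sterol values was not tested, nor was that of the lower LSK and stem cell markers.

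**Figure D3:**
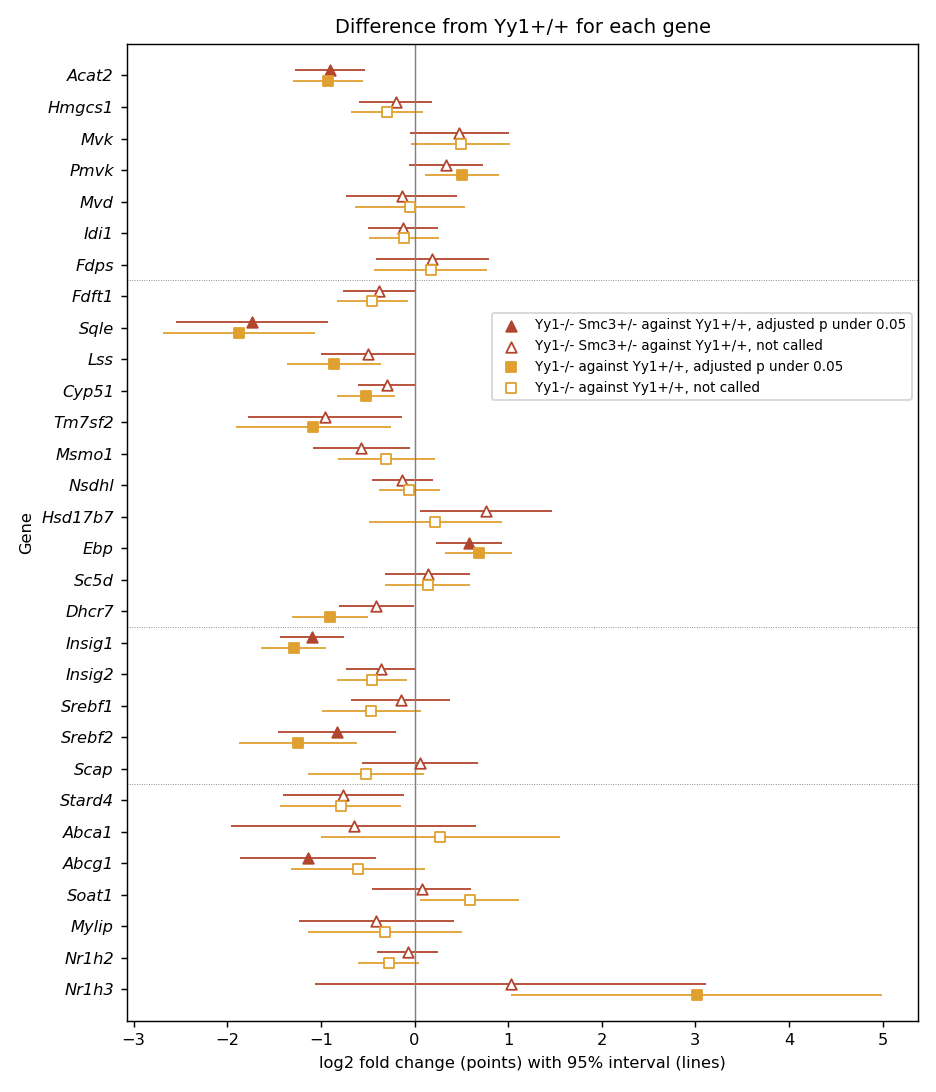
Log2 fold change of each gene (points, horizontal axis) in Yy1-/- Smc3+/- (triangles) and Yy1-/- (squares) over Yy1+/+, with 95% intervals as lines and filled symbols where the edgeR adjusted p is under 0.05. Filled points left of 0 include Insig1, Sqle, Acat2 and Srebf2 in both mutants, Ebp is filled right of 0 in both, and the interval of Nr1h3 is the widest.

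Of the 7 genes of liver X receptors, storage and transport, Abcg1 was called lower in Yy1-/- Smc3+/- and Nr1h3 higher in Yy1-/-. Abcg1 (chr17:31057675-31117988, plus strand), which exports cholesterol to lipoproteins and is a liver X receptor target, had 19.3, 26.7, 28 and 18.9 CPM in Yy1-/- Smc3+/-, 40.4, 54, 21.1 and 18.1 CPM in Yy1-/-, and 50, 29.7, 59.9 and 64.7 CPM in Yy1+/+. The Yy1-/- Smc3+/- libraries lay below all Yy1+/+ libraries. In Yy1-/-, libraries 1 and 2, rich in macrophage markers, lay in the Yy1+/+ range and libraries 3 and 4 below it. The log2 fold change was -1.13 ± 0.34 in Yy1-/- Smc3+/- (edgeR adjusted p = 0.0223) and -0.61 ± 0.33 in Yy1-/- (edgeR adjusted p = 0.173). The call was lost without Yy1-/- Smc3+/- library 1 or 4 or Yy1+/+ library 3 or 4, with edgeR adjusted p up to 0.0661. In Yy1-/- the gene was called without library 2, at -0.94 (edgeR adjusted p = 0.0404).

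Abca1, the exporter that loads cholesterol onto apolipoproteins, had 10.5, 14.2, 13.7 and 8.52 CPM in Yy1-/- Smc3+/-, 30.5, 44.9, 10.2 and 3.39 CPM in Yy1-/-, and 25.4, 6.03, 21.1 and 21.5 CPM in Yy1+/+. Yy1-/- libraries 1 and 2 were the highest of the 12 and library 4 the lowest, and the gene was not called in either mutant.

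Nr1h3 (chr2:91184061-91202834, minus strand) encodes liver X receptor alpha, which is abundant in macrophages. It had 5.27, 10.5, 2.61 and 1.66 CPM in Yy1-/- Smc3+/-, 53.5, 21.1, 0.808 and 4.94 CPM in Yy1-/-, and 3.83, 2.29, 1.16 and 2.55 CPM in Yy1+/+. Yy1-/- libraries 1 and 2 lay above every other library, and library 3 was the lowest of all 12. In log2 terms the difference was 1.03 ± 0.97 in Yy1-/- Smc3+/- (edgeR adjusted p = 0.455) and 3.01 ± 0.92 in Yy1-/- (edgeR adjusted p = 0.0216). Without Yy1-/- library 1 it was 1.84 in Yy1-/- and not called (edgeR adjusted p = 0.114), and the call was also lost without Yy1+/+ library 3 (2.79, edgeR adjusted p = 0.0583) or 4 (3.02, edgeR adjusted p = 0.0509) and with limma on log2(TPM + 1) (1.45, limma adjusted p = 0.175). Its lowest count in a library was 36 reads.

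Across the 20 monocyte and macrophage markers, 10 were called higher in Yy1-/- Smc3+/- and 15 in Yy1-/-, of 19 tested, and 0 were called lower in either. The shares of all tested genes called higher were 13.1% in Yy1-/- Smc3+/- and 16.3% in Yy1-/-. C1qb, a complement gene of macrophages, had 15.2 to 461 CPM in Yy1-/- Smc3+/-, 2206 and 1540 CPM in Yy1-/- libraries 1 and 2, 9.34 and 74.0 CPM in Yy1-/- libraries 3 and 4, and 4.33 to 23.1 CPM in Yy1+/+. The 2 Yy1-/- libraries highest in these markers were thus also the highest in Nr1h3 and Abca1, and the part of such cells in the values of these genes was not tested. Insig1 was at 16.6 and 21.3 CPM in those 2 libraries and at 17 and 17.7 CPM in the other 2. Sqle was at 8.54 and 15.5 CPM in those 2 libraries and at 26.9 and 36.4 CPM in the other 2. The part of such cells in the values of Insig1 and Sqle was not tested either.

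**Figure D4:**
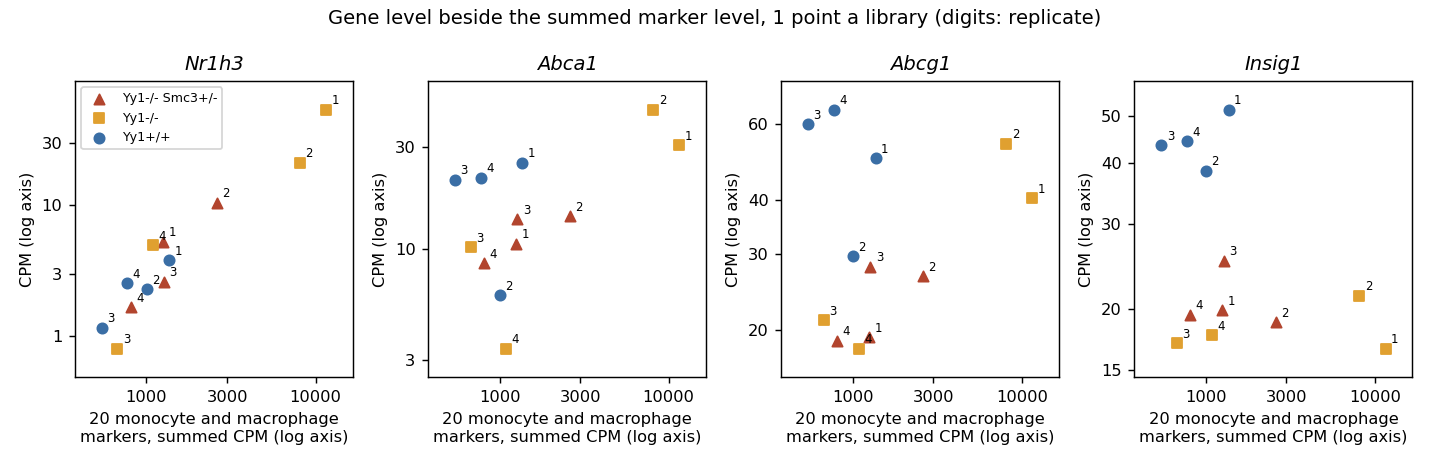
CPM of Nr1h3, Abca1, Abcg1 and Insig1 (vertical log axes) beside the summed CPM of 20 monocyte and macrophage markers (horizontal log axis), with 1 point a library and its replicate number. Yy1-/- libraries 1 and 2 stand at the right, at 11560 and 8108 CPM of markers, with the highest Nr1h3 and Abca1 and with Insig1 at 16.6 and 21.3 CPM.

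The remaining members of this group were not called in either mutant. Stard4, a carrier that moves cholesterol between membranes, had 13.6, 12.8, 26.7 and 21.4 CPM in Yy1-/- Smc3+/-, 10.5, 15.3, 27.7 and 19.3 CPM in Yy1-/-, and 30.2, 24.1, 36.0 and 35.6 CPM in Yy1+/+. Library 3 of each mutant, with residual Yy1 reads, overlapped the Yy1+/+ range. Its log2 fold change was -0.76 ± 0.30 in Yy1-/- Smc3+/- (edgeR adjusted p = 0.0723) and -0.79 ± 0.30 in Yy1-/- (edgeR adjusted p = 0.0566). Without the residual libraries it was called, at -1.03 ± 0.26 in Yy1-/- Smc3+/- (edgeR adjusted p = 0.0157) and -1.31 ± 0.30 in Yy1-/- (edgeR adjusted p = 0.00937). In Yy1-/- that setting leaves libraries 1 and 2, the highest in monocyte and macrophage markers, so residual Yy1 reads and cell content cannot be told apart. Yy1-/- Smc3+/- library 3, left out there, was also the highest of its genotype in neutrophil genes, so the same limit holds. Leaving out 1 library also gave calls, in Yy1-/- Smc3+/- without its library 3 or Yy1-/- library 1 or 3 (edgeR adjusted p 0.0371 to 0.0396), and in Yy1-/- without Yy1-/- library 3, Yy1-/- Smc3+/- library 2 or 3 or Yy1+/+ library 2 (edgeR adjusted p 0.0149 to 0.0477).

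Soat1, which esterifies cholesterol for storage, had 25.7 to 52.8 CPM in Yy1-/- Smc3+/-, 38.4 to 84.5 CPM in Yy1-/- and 35.4 to 43.1 CPM in Yy1+/+. Its highest values were in Yy1-/- libraries 1 and 2, the highest in monocyte and macrophage markers. These are also the Yy1-/- libraries left without the residual libraries. In that setting its log2 fold change in Yy1-/- was 0.86 ± 0.24 and called (edgeR adjusted p = 0.0230). It was also called without Yy1-/- library 3 alone (0.72, edgeR adjusted p = 0.0353) or Yy1-/- Smc3+/- library 1 alone (0.59, edgeR adjusted p = 0.0492). Mylip, a ubiquitin ligase induced by liver X receptors, had 15.1 to 25.6 CPM in Yy1-/- Smc3+/-, 11 to 33.7 CPM in Yy1-/- and 11.4 to 36.8 CPM in Yy1+/+. Nr1h2 had 114 to 162 CPM in Yy1-/- Smc3+/-, 101 to 120 CPM in Yy1-/- and 123 to 176 CPM in Yy1+/+, with log2 fold changes of -0.07 ± 0.15 in Yy1-/- Smc3+/- and -0.27 ± 0.15 in Yy1-/-. Its Yy1-/- libraries lay below its Yy1+/+ libraries by a small margin, and the difference was not called. Of the 30 genes, 1 lay higher and 4 lower without overlap in Yy1-/- Smc3+/-, beside 14.7% higher and 17.6% lower of all tested genes. In Yy1-/- 2 lay higher and 8 lower without overlap, beside 13.4% and 17.5% of all tested genes.

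The effect of the Smc3 label on a Yy1-null background was asked by comparing Yy1-/- Smc3+/- with Yy1-/-. By edgeR 0 of the 30 genes were called, as against 0.036% of all tested genes, or 6 genes, all higher in Yy1-/- Smc3+/-. At an unadjusted edgeR p under 0.05 there were 2 members, beside 6.46% of all tested genes, and DESeq2 called 0. Without the 3 libraries with residual Yy1 reads, which leaves the 2 Yy1-/- libraries highest in monocyte and macrophage markers, 34 genes were called higher and 277 lower in Yy1-/- Smc3+/- than in Yy1-/-, or 0.193% and 1.57% of the genes tested. None of the 30 was among them, with Nr1h3 at -2.68 ± 0.61 (edgeR adjusted p = 0.0555). The 2 with an unadjusted p under 0.05 over all libraries were Dhcr7, at a log2 fold change of 0.50 with a 95% interval of 0.09 to 0.90, and Nr1h3, at -1.99 with an interval of -3.85 to -0.12, each with an edgeR adjusted p of 0.756. Lss was the member without overlap, with 15.8 to 18.8 CPM in Yy1-/- Smc3+/- and 12.3 to 13.8 CPM in Yy1-/-, beside 1.13% of all tested genes that lay higher in this way. The 95% interval lay within a log2 fold change of -1 to 1 for 22 of the 30 genes. For Insig1 it ran from -0.15 to 0.54 and for Sqle from -0.68 to 0.94, so a difference of moderate size in Sqle was not detectable with 4 libraries a genotype.

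Among 35 further genes of sterol uptake, oxysterols, esters and protein turnover, 34 were tested. In Yy1-/- Smc3+/- 3 were called higher and 9 lower at a median of -0.22 on the log2 scale, and in Yy1-/- 4 higher and 10 lower at a median of -0.14. Over all tested genes the shares were 13.1% higher and 16.7% lower in Yy1-/- Smc3+/-, and 16.3% higher and 18.8% lower in Yy1-/-. Cyp7b1, which hydroxylates oxysterols, had 0.110, 0.585, 0.336 and 0.695 CPM in Yy1-/- Smc3+/-, 0, 0.0598, 0.337 and 0.740 CPM in Yy1-/-, and 8.36, 13.8, 7.65 and 10.6 CPM in Yy1+/+. It was close to 0 in all mutant libraries, with log2 fold changes of -4.56 ± 0.51 in Yy1-/- Smc3+/- (edgeR adjusted p = 3.00e-05) and -5.17 ± 0.54 in Yy1-/- (edgeR adjusted p = 1.87e-05), whose size rests on few mutant reads.

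Nceh1, which splits cholesterol esters, had 47.3, 62.2, 39.2 and 44.2 CPM in Yy1-/- Smc3+/-, 64.2, 71.4, 54.5 and 46.0 CPM in Yy1-/-, and 133, 110.0, 128 and 142 CPM in Yy1+/+. No mutant library reached the Yy1+/+ range, and the edgeR adjusted p was 9.71e-05 in Yy1-/- Smc3+/- and 0.000385 in Yy1-/-. Rnf139, a ubiquitin ligase of the endoplasmic reticulum with a sterol-sensing domain, had a mean of 44.2 ± 4.69 CPM in Yy1-/- Smc3+/-, 47.0 ± 4.69 CPM in Yy1-/- and 81.0 ± 4.38 CPM in Yy1+/+ (SD, n = 4 each), and was called lower in both.

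Among 24 genes of fatty acid and lipid synthesis, the arm that SREBP-1 is known to drive, 23 were tested. In Yy1-/- Smc3+/- 1 was called higher and 5 lower at a median of -0.35 on the log2 scale, and in Yy1-/- 1 higher and 8 lower at a median of -0.39. Beside them, 13.1% of all tested genes were called higher and 16.7% lower in Yy1-/- Smc3+/-, and 16.3% higher and 18.8% lower in Yy1-/-, so that the 5 lower in Yy1-/- Smc3+/- lay near the share of all genes. Acss2, which makes acetyl-CoA from acetate, had 23.6, 24.4, 14.1 and 11.5 CPM in Yy1-/- Smc3+/-, 6.15, 11.9, 18.7 and 19 CPM in Yy1-/-, and 62.6, 74.0, 77.1 and 75.0 CPM in Yy1+/+. The groups did not overlap, and the log2 fold change was -1.97 ± 0.32 in Yy1-/- Smc3+/- (edgeR adjusted p = 0.000586) and -2.37 ± 0.32 in Yy1-/- (edgeR adjusted p = 0.000165). Lpin1, a phosphatidate phosphatase, averaged 15.4 ± 2.82 CPM in Yy1-/- Smc3+/-, 16.4 ± 6.04 CPM in Yy1-/- and 53.6 ± 3.96 CPM in Yy1+/+ (SD, n = 4 each), and was called lower in both.

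The desaturase gene Fads2 averaged 51.4 ± 2.15 CPM in Yy1-/- Smc3+/-, 36.9 ± 13.4 CPM in Yy1-/- and 97.0 ± 7.79 CPM in Yy1+/+, and its neighbour Fads3 averaged 9.27 ± 2.53 CPM in Yy1-/- Smc3+/-, 6.41 ± 1.13 CPM in Yy1-/- and 15.9 ± 2.16 CPM in Yy1+/+ (SD, n = 4 each). Both were called lower in both mutants. Dgat2, which makes triglyceride, went the other way, with 11.5, 10.2, 48.6 and 15.2 CPM in Yy1-/- Smc3+/-, 24.6, 31.8, 20.8 and 25.6 CPM in Yy1-/-, and 5.22, 7.98, 2.86 and 2.23 CPM in Yy1+/+. Every mutant library lay above every Yy1+/+ library, and the log2 fold change was 2.19 ± 0.51 in Yy1-/- Smc3+/- (edgeR adjusted p = 0.00634) and 2.46 ± 0.51 in Yy1-/- (edgeR adjusted p = 0.00262).

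**Figure D5:**
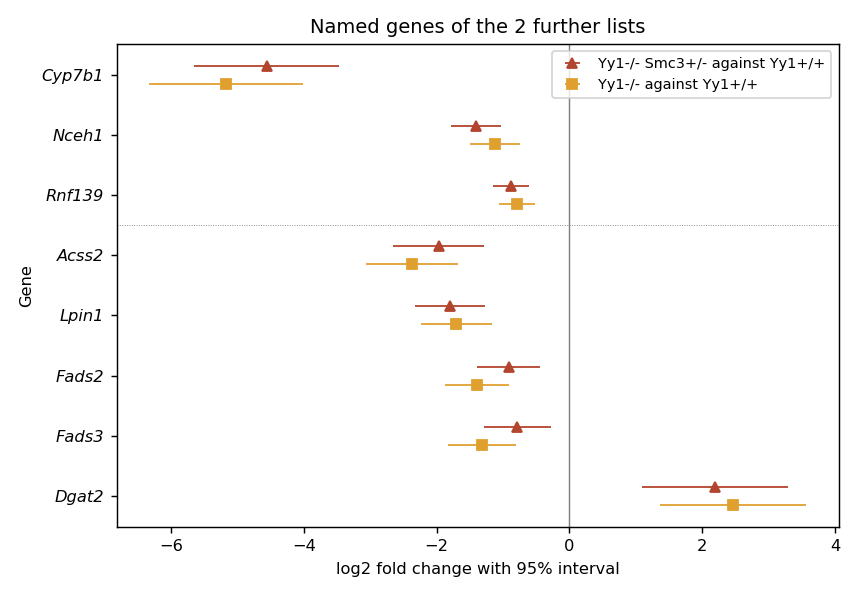
Log2 fold change (points) with 95% interval (lines) of the named genes of sterol handling (above the dotted line) and fatty acid and lipid synthesis (below it) in Yy1-/- Smc3+/- (triangles) and Yy1-/- (squares) over Yy1+/+. Dgat2 lies right of 0 in both mutants and the other 7 genes left of it.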

How the data were processed

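Full-length cDNA libraries were made from RNA of sorted LSK cells with a low-input SMART-Seq kit, per the labels' protocols. The submitters' processing notes name STAR 2.5.2b, RSEM 1.3.0 and the mm10 build; the aligner settings, the annotation release and the use of strand are not given in the sources used here. The deposited tables hold, per gene, an RSEM expected count, a TPM, an FPKM and an effective length, per the file headers. The authors' expected counts were rounded to whole numbers for testing, the authors' TPM served for levels between genes, and the deposited FPKM was not used. Of 55487 gene IDs, 55094 matched GENCODE M21 in the same version, 300 in another version and 93 not at all.

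Genes were kept by filterByExpr (minimum count 10, minimum total 15), scaled by TMM and fitted in 1 edgeR 4.0.16 quasi-likelihood model over all 12 libraries, with a term per genotype, in R 4.3.3. The Benjamini-Hochberg threshold was 0.05. Alternatives used limma 3.58.1 and DESeq2 1.42.0 and the settings given in the closing section; the scripts were tested on simulated data. The depth of 38671354 to 69086104 expected counts per library gave each member at least 36 reads in a library. The members and all lists were chosen with earlier results of these data known. Values per library are given for members called in at least 1 comparison, and in part for others; of the 2 further lists, up to 4 called genes with the smallest p in each comparison are named, and some genes that meet this rule are not reported here.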

Additional observations from a re-analysis of the deposited data

Results flagged for a closer look

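Among 90 groups of 4 libraries (30 genes in 3 genotypes), 8 held a library far from the other 3 by Dixon's test, and chance flags about 1 group in 20. Of the 8, 6 were Yy1+/+ library 2, the deepest library. It also had the lowest Kit of its genotype, at 422 CPM against 809 to 981 CPM in the other 3. Its sum of 12 neutrophil genes was the highest of its genotype, at 10610 CPM against 2699 to 8409 CPM. The part of depth or cell content in these values was not tested. Yy1+/+ library 2 was the lowest of its group in Hmgcs1 at 33.9 CPM, in Mvk at 6.46 CPM, in Lss at 12.35 CPM and in Srebf2 at 127.6 CPM. It was the highest in Pmvk at 30.6 CPM and in Nr1h2 at 176 CPM. The other 2 were Insig2 in Yy1-/- Smc3+/- library 3, the highest of its group at 29.0 CPM, and Hsd17b7 in Yy1-/- library 1, the lowest of its group at 7.14 CPM.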

How the results depend on the processing

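Of 1890 fold changes recomputed under 21 other settings, 1802 stayed on their side of the threshold, 50 lost a call and 38 gained 1. Of the 1802, 1730 kept their direction and 72, none of them called, changed sign. Called under all settings were 7 members in Yy1-/- and 3 in Yy1-/- Smc3+/-. Leaving out each library in turn gave 0 to 2 members called higher and 3 to 8 lower in Yy1-/- Smc3+/-, 1 to 3 higher and 7 to 9 lower in Yy1-/-, and 0 to 0 between the mutants. Over all genes these fits called 9.12% to 13.2% higher and 12.9% to 18.2% lower in Yy1-/- Smc3+/-. In Yy1-/- they called 12.6% to 16.5% of all genes higher and 16.0% to 18.8% lower. The count called lower in Yy1-/- Smc3+/- was 3 without its library 1 or 4 or Yy1+/+ library 3 or 4, and 8 without Yy1-/- library 1 or Yy1+/+ library 2. The count called higher was 0 in Yy1-/- Smc3+/- with no filter on low counts (6.18% of all genes) and 0 without the 3 libraries that kept residual Yy1 reads (8.95% of all genes), and 1 in Yy1-/- with limma on log2(TPM + 1). That limma setting, with a pseudocount of 1, moved the median log2 fold change of all genes to -0.11 in Yy1-/- Smc3+/- and -0.18 in Yy1-/-. It called 7.80% of genes higher and 20.9% lower in Yy1-/- Smc3+/-, and 8.68% higher and 26% lower in Yy1-/-. DESeq2 called 1 member higher and 6 lower in Yy1-/- Smc3+/-, and 3 higher and 11 lower in Yy1-/-. Of all genes it called 13.7% higher and 16.7% lower in Yy1-/- Smc3+/-, and 16.9% higher and 18.8% lower in Yy1-/-. The older quasi-likelihood method of edgeR, tried after seeing the data, called 1 member higher and 4 lower in Yy1-/- Smc3+/-, and 2 higher and 7 lower in Yy1-/-. Its shares of all genes were 11.3% higher and 13.4% lower in Yy1-/- Smc3+/-, and 14.5% higher and 15.6% lower in Yy1-/-. No paired analysis was possible because the labels give the genotypes no shared replicate numbers, and the library numbers used here were given in the order of deposit and pair nothing. Nr1h3 and Abca1 had the largest standard errors in each comparison.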
